A study of Mus musculus with 7 samples.

Results

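Choroid plexus epithelial nuclei were few in these brain libraries and were unevenly spread over them. A nucleus was a member if at least 3 of the 6 genes Otx2, Kl, Folr1, Clic6, Slc4a5 and Kcnj13 were detected in it and their UMIs (unique molecular identifiers, 1 per captured RNA molecule) summed to at least 10 per 10000 UMIs of that nucleus. This rule found 182 members among 58169 nuclei, or 0.313%. The members were thus selected on the measured levels of those 6 genes, which are given below as a description only. The nuclei came from the subcortex, thalamus and hippocampus of 5xFAD +/- mice, which carry human transgenes with familial Alzheimer's disease mutations and form amyloid plaques. All mice, controls included, carried these transgenes, were 6 months old and had received an adeno-associated virus (AAV) by retro-orbital injection at 4 months of age, 2 months earlier. ANGPT2 AAV was given to the mice of 4 libraries: a male and a female in batch 1, and a male and a female in batch 2. Control AAV was given to the mice of 3 libraries: a male and a female in batch 1, and a male in batch 2. The labels give the batch as a replicate number and do not number the animals, so p-values measure the spread between these samples. The promoter of the vectors and the cells they entered are not given in the sources used here.

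The choroid plexus is a folded epithelium in the brain's ventricles that rests on a vascular stroma and secretes cerebrospinal fluid. Its cells carry ion cotransporters, carbonic anhydrases and channels that move salt and water, and carriers that bring folate, vitamin C and thyroid hormone from blood to fluid. They also make transthyretin (Ttr), a carrier of thyroid hormone that binds amyloid-beta, and tight junctions between them form a barrier between blood and cerebrospinal fluid. Angiopoietin-2, encoded by Angpt2, is released by endothelium and binds the receptor TIE2, encoded by Tek, where it is best known as an antagonist in blood vessels. The series title concerns angiopoietin-2, the blood-brain barrier and neuroinflammation in Alzheimer's disease.

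Most members came from batch 1, with 165 nuclei, against 17 from batch 2. In the ANGPT2 AAV libraries, 21 of 7614 nuclei were members in the batch 1 male (0.276%, exact 95% interval 0.171% to 0.421%) and 66 of 9579 in the batch 1 female (0.689%, 0.533% to 0.876%). The batch 2 ANGPT2 AAV libraries held 0 of 6291 in the male, which allows a share of up to 0.0477%, and 9 of 8351 in the female (0.108%, 0.0493% to 0.205%). In the control AAV libraries, 46 of 9053 were members in the batch 1 male (0.508%, 0.372% to 0.677%), 32 of 7659 in the batch 1 female (0.418%, 0.286% to 0.589%) and 8 of 9622 in the batch 2 male (0.0831%, 0.0359% to 0.164%). Every batch 2 library was below every batch 1 library, and the groups overlapped. These intervals are Clopper-Pearson intervals and, like the limit for a count of 0, cover counting error only. Total UMIs were 25466033 to 32526932 in batch 2 and 65676959 to 100529717 in batch 1. Nuclei were also thinned to 1500 UMIs each, with shallower nuclei left out. In batch 2 the share was then 0% and 0.0912% in the ANGPT2 AAV male and female, and 0.0841% in the control AAV male. In batch 1 it was 0.205% and 0.437% with ANGPT2 AAV (male, female), against 0.330% and 0.245% with control AAV. Every batch 2 library thus stayed below every batch 1 library at this depth. The part of depth in the batch difference was not otherwise tested. How much plexus each block of tissue held is not recorded in the labels.

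**Figure D1:**
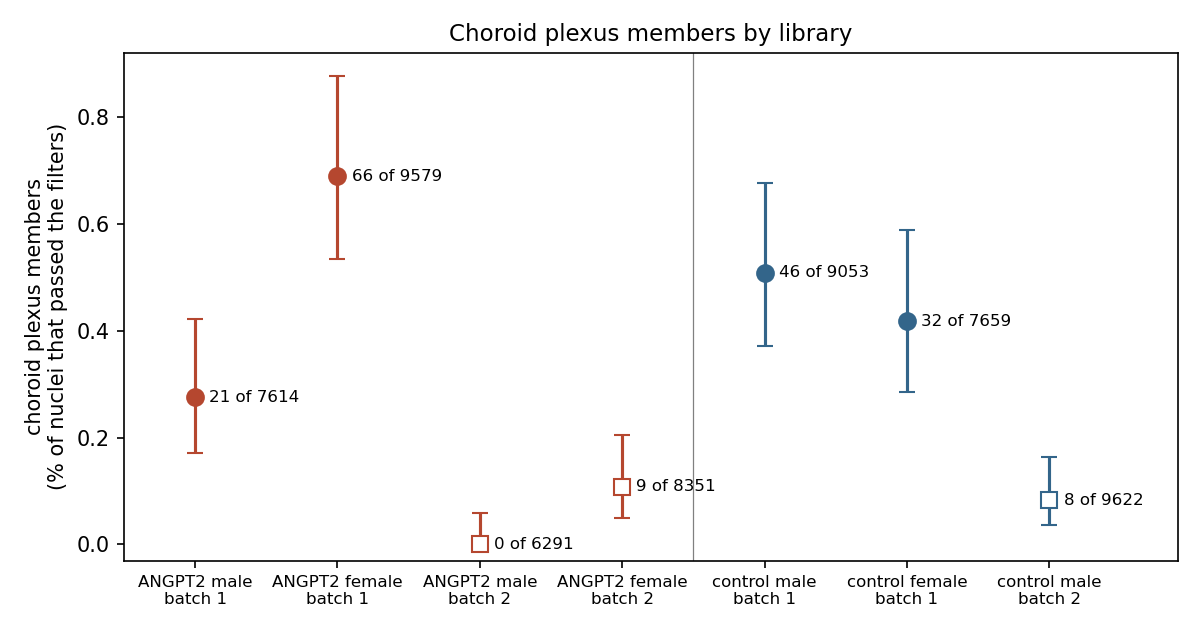
Members as a percentage of the nuclei that passed the filters (y axis), 1 point per library with its exact 95% binomial interval. ANGPT2 AAV is left of the vertical line and control AAV right of it, filled circles are batch 1 and open squares batch 2. Points run from 0 of 6291 nuclei in the ANGPT2 AAV male of batch 2 to 66 of 9579 in the ANGPT2 AAV female of batch 1.

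The share of nuclei that were members did not separate ANGPT2 AAV from control AAV. It averaged 0.268% ± 0.303 in ANGPT2 AAV libraries (SD, n = 4) and 0.336% ± 0.224 in control AAV libraries (SD, n = 3), a difference of -0.0682 percentage points (2-sided exact permutation test, p = 0.743; the smallest this design can give is 0.0286). Within batch 1 the difference was 0.0194 points (2 libraries a group), and within batch 2 it was -0.0293 points. Among batch 1 males the ANGPT2 AAV library was lower by 0.232 points (difference -0.232), while among batch 1 females it was higher, with a difference of 0.271 points. These sexes rest on 1 library per group each and the contrast between them was not tested. The difference turned positive without the ANGPT2 AAV male of batch 2 (0.0212) and without the control AAV male of batch 1 (0.0177).

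All 6 selecting genes were found broadly among the members. By the number detected, 21 members had exactly 3 of them, 57 had 4, 50 had 5 and 54 had all 6. Clic6, a chloride intracellular channel protein, had a UMI in 92.9% of members and in 1.78% of the other nuclei, and Slc4a5, a sodium bicarbonate cotransporter, in 86.8% against 0.390%. Kl, which encodes the ageing-related membrane protein klotho, was detected in 80.8% against 2.40%, and Otx2, a homeobox factor needed to form and maintain the plexus, in 80.2% against 0.712%. Kcnj13, an inward rectifier potassium channel, was detected in 77.5% against 0.923%, and Folr1, the folate receptor that carries folate across this epithelium, in 57.1% against 0.400%. Members had a median of 5628 UMIs (837 to 19061) and 2915.5 genes. In the rest of this account a gene's level is its UMIs summed over the members of a library and scaled to a total of 1000000 (CPM); levels are not scaled by gene length, so they are compared between libraries and not between genes.

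The label was checked against Ttr, which the rule did not use because its RNA is also found free in the suspension. Every member had at least 1 Ttr UMI, but so had 48.0% of the other nuclei, whose median was 0 per 10000 UMIs. Members held 4.18 to 1649 Ttr UMIs per 10000, with a median of 59.2, and 414 other nuclei were above that median. Summed over members, Ttr stood at 6621 and 7263 CPM in the male and female ANGPT2 AAV libraries of batch 1, against 6831 and 6989 CPM in the control AAV male and female of batch 1. In the other nuclei of the same libraries it stood at 82.2 and 567 CPM with ANGPT2 AAV, against 96.5 and 122 CPM with control AAV. In each of these 4 libraries Ttr, an abundant transcript of this epithelium, was far higher in members than in the nuclei around them. One control AAV nucleus of batch 1 devoted 16.5% of its 1922 UMIs to Ttr and was not called a doublet.

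**Figure D2:**
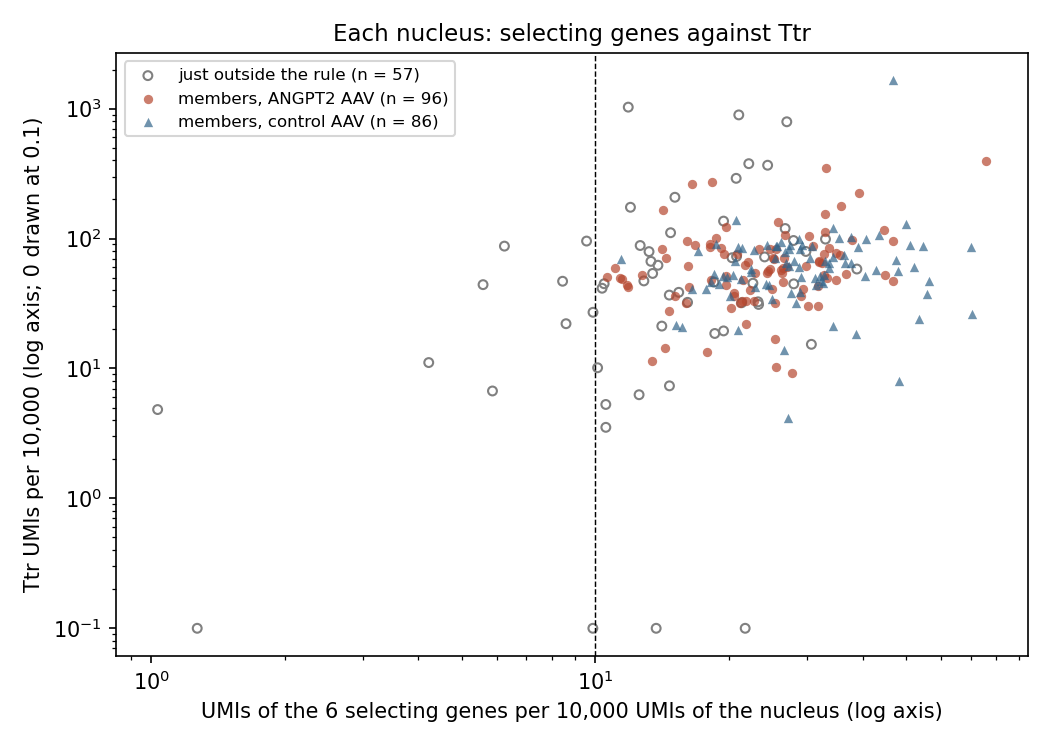
Each point is 1 nucleus: UMIs of the 6 selecting genes per 10000 UMIs (x axis, log) against Ttr UMIs per 10000 (y axis, log, 0 drawn at 0.1). The 96 ANGPT2 AAV and 86 control AAV members overlap throughout, with Ttr between 4.18 and 1649 per 10000; grey circles are the 57 nuclei just outside the rule.

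Nuclei lay close to the threshold on both sides of it. Just inside it, 14 members had under 15 UMIs of the selecting genes per 10000 and a median of 49.9 Ttr UMIs per 10000. Just outside, 46 nuclei met 10 per 10000 with 2 of the genes, had a median of 1361.5 UMIs and held a median of 50.5 Ttr UMIs per 10000. A further 11 nuclei had 3 or more of the genes at 1.03 to 9.89 per 10000, a median of 17887 UMIs and a median of 22.1 Ttr UMIs per 10000. Of the 46 shallow nuclei, 24 were in the ANGPT2 AAV female of batch 1, which held 66 members. In the control AAV male of batch 2 there were 11, more than its 8 members. Barcode sequences were shared by 2 or more libraries in 1934 cases. No barcode sequence was a member in more than 1 library, and 12 member barcodes also occurred in another library.

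Genes that mark the members beyond the rule were taken as the 20 with the highest ratio of members to the other nuclei. The ratio is the mean log2 difference over the 4 batch 1 libraries, after adding 1 CPM, and is a description, since the same nuclei were selected on related genes. Tmem72, a transmembrane protein of little known function, led with a log2 ratio of 9.26, at 1153 and 1025 CPM in ANGPT2 AAV members, against 1180 and 1045 CPM in control AAV members, and at 0.336 to 2.22 CPM in other nuclei. Col9a3 and Col8a1 (collagen chains), Col4a3 and Col4a4 (chains of basement membrane collagen IV), F5 (coagulation factor V), Slc13a4 (a sulphate transporter), Slc2a12 (a glucose transporter) and Trpv4 (an osmosensitive cation channel) followed with log2 ratios of 6.94 to 7.54. The factors among them were Lmx1a, a roof plate LIM homeobox gene (7.55), Prdm16 (6.74), and Gmnc, which starts the programme for many motile cilia per cell (8.47). Otx2os1, the transcript antisense to Otx2, had a ratio of 8.25; whether the counting used strand is not given in the sources used here, so its reads and those of Otx2 may not be separable. The remaining 7 were Gm534, Drc7, Wdr86, Tc2n, Wdr72, Rbm47 and Gm14051, at 6.74 to 8.04.

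Promoter sequences are shown for the leading marker gene, Tmem72, and for Otx2 and Rbm47, each with a window that held TAATCC, the core motif bound by Otx-type homeodomains, on either strand. They run 5′ to 3′ along the gene's strand from 250 bases before to 50 bases after the annotated start (RefSeq, GRCm38.p6), with the motif in capitals where present, which reads GGATTA on the other strand. Of 26 genes looked for, the 6 selecting genes and these 20, 19 had a window (4 and 15 of them) and 3 had a window with the motif, while 8.14% of all 27025 genes in the table had one. Genes can have several annotated starts, and 3 of the 31 windows of these genes held the motif, against 7.06% of all windows. The third gene was Gm14051, at chr2:132143329-132143628 (+). A match describes these letters only.
Tmem72, chr6:116716709-116717008 (-): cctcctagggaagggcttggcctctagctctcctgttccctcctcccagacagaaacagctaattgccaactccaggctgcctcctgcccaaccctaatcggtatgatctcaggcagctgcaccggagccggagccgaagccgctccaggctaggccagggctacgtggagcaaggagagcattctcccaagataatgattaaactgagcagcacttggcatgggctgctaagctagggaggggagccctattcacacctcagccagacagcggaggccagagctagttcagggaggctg
Otx2, chr14:48665060-48665359 (-): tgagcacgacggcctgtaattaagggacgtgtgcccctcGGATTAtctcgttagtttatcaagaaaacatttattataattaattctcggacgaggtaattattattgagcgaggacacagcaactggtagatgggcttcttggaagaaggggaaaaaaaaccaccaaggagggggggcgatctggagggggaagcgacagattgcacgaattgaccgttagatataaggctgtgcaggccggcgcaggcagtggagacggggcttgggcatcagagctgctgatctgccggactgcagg
Rbm47, chr5:66151905-66152204 (-): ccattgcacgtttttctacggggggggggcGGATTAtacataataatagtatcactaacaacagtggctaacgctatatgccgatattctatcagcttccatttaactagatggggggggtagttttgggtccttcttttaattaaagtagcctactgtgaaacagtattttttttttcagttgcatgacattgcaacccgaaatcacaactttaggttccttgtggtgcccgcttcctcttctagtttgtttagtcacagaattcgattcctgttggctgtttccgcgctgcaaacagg

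All 12 listed hindbrain Hox genes, which mark epithelium of the fourth ventricle, had 0 UMIs in all 182 members. At most 0.0425 CPM of any listed Hox gene was found in the other nuclei of batch 1, and a 0 here is a limit of detection in nuclei with a median of 5628 UMIs.

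Members carried part of the motile cilia gene set, and the 20 genes of the cilia list were lower than in ependymal nuclei by differing amounts. Ependymal cells line the ventricles with tufts of motile cilia, and 314 nuclei met a rule of the same form on 10 ependymal markers. Hydin, Dnah12 and Spag17 are among those markers. Their low ratios are thus partly set by how the ependymal nuclei were selected, and are a description only. Dnah6, an inner-arm dynein heavy chain, had a mean log2 ratio of -1.40 against ependymal nuclei, Cfap44, a flagellar axoneme protein, -1.60, and Hydin, of the central pair, -3.15. Dnah12 (-9.05), Dnah5 (-8.63), Spag17 (-8.06) and Ccdc40 (-6.54), which serve dynein arms, the central pair and axoneme assembly, were at 0 in both ANGPT2 AAV libraries and at 0 to 18.1 CPM in the control AAV libraries. Spag16, a central pair protein, was close to its ependymal level (-0.21), with 2823 and 1567 CPM in ANGPT2 AAV members, against 2031 and 1936 CPM in control AAV members. Ependymal markers summed to 408 and 291 CPM in ANGPT2 AAV members, against 317 and 445 CPM in control AAV members, and 31 members had 3 or more of them. Tmem212, an ependymal marker, was at 0 in batch 1 members. Outside that list, Drc7, a dynein regulatory complex subunit, was higher in members than in ependymal nuclei, with a log2 ratio of 1.47, as was Gmnc (3.73).

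Several defining markers of vascular and stromal cells had no UMI in batch 1 members, while neuronal RNA was present in nearly every member. Tek, Cdh5, Cldn5, Emcn and Flt1, which define endothelium, had no UMI in any member of batch 1. Nor had the fibroblast markers Col3a1, Lum, Ranbp3l and Slc47a1, the mural markers Acta2 and Kcnj8 or the macrophage marker Mrc1. These were 5 of 10 endothelial, 4 of 10 fibroblast, 2 of 9 mural and 1 of 11 microglial and macrophage markers, and the others were detected. No member had 3 endothelial or 3 mural markers, 1 had 3 of the fibroblast list and 5 had 3 of the microglial list. The whole fibroblast list summed to 79.5 and 179 CPM in ANGPT2 AAV members, against 87.5 and 124 CPM in control AAV members, which was 291% to 607% of its sum in the other nuclei of the same library. The mural list summed to 49.7 and 26.7 CPM in ANGPT2 AAV members, against 24.1 and 37.1 CPM in control AAV members. This was 57.6% to 192% of its sum in the other nuclei. The microglial and macrophage list summed to 89.5 and 179 CPM, against 69.4 and 247 CPM in control AAV members, or 37.5% to 108% of the other nuclei. The endothelial list summed to 19.9 and 8.01 CPM, against 12.1 and 0 CPM in control AAV members, or 0% to 62.3%. In contrast, 168 of 182 had 3 or more of 10 neuronal markers, 56 had 3 oligodendrocyte markers, 42 had 3 astrocyte markers and 16 had 3 markers of oligodendrocyte precursors. The neuronal markers summed to 1829 and 2347 CPM in ANGPT2 AAV members, against 2622 and 2962 CPM in control AAV members. In the other nuclei they summed to 21705 and 19950 CPM with ANGPT2 AAV, against 22051 and 22372 CPM with control AAV. Oligodendrocyte markers summed to 577 and 1097 CPM in ANGPT2 AAV members, against 911 and 482 CPM in control AAV members. The doublet caller marked 8 members, 0 and 5 in the male and female of ANGPT2 AAV batch 1, against 2 and 1 in the male and female of control AAV batch 1.

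Gene expression in members was compared between ANGPT2 AAV and control AAV in the 4 libraries with at least 10 members, all of batch 1, so 2 ANGPT2 AAV libraries with 100588 and 374496 member UMIs were set against 2 control AAV libraries with 331444 and 161694. No gene passed the test: 0 of 5483 tested genes (0.0%) had an adjusted p under 0.05 in edgeR's quasi-likelihood test with Benjamini-Hochberg adjustment, with a lowest adjusted p of 0.341. At an unadjusted p under 0.05 there were 301 genes (5.49%), 138 higher and 163 lower in ANGPT2 AAV members, and 66 by DESeq2, which also called 0. Log2 changes had a median of -0.00, quartiles of -0.27 and 0.25, and a median standard error of 0.38. Where the 2 ANGPT2 AAV values were both above or both below the 2 control AAV values, this was so for 16.9% of genes (higher) and 18.1% (lower), the backgrounds for the counts below. The low-count filter asks only for as many libraries as the smaller group holds. A gene near the floor can thus pass through 1 group alone, and its direction is then set by the filter. The count of calls depended on single libraries. It was 66 without the ANGPT2 AAV male, 34 without the control AAV female, 23 without the control AAV male and 0 without the ANGPT2 AAV female, each assuming that the lone library left in a group varies like the pair in the other.

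The 10 genes with the smallest unadjusted p among those higher in ANGPT2 AAV members included 2 of the 20 marker genes above, Col8a1 and Tc2n. They are named for their rank in this comparison, and none was called. Col8a1 is a collagen of basement membranes under endothelium and epithelium. It stood at 2724 and 3204 CPM in ANGPT2 AAV members (male, female), against 1919 and 990 CPM in control AAV members. Its log2 fold change was 1.02 ± 0.26 (SE, edgeR adjusted p = 0.383), and 0.61 ± 0.35 in the other nuclei of the same libraries. The highest nucleus gave 20.4% and 4.83% of the Col8a1 UMIs of the ANGPT2 AAV male and female, against 7.08% and 6.88% in control AAV. Sntb1, a syntrophin of the dystrophin complex, stood at 895 and 1178 CPM, against 543 and 439 CPM in control AAV members (1.08 ± 0.23, adjusted p = 0.341). Tc2n, a C2-domain protein, stood at 388 and 593 CPM, against 253 and 229 CPM in control AAV members (1.07). The groups did not overlap for any of the 10, which their small p nearly requires.

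Other genes of this group act in signalling, proteolysis and secretion. Tgfbr2, the type II receptor for TGF-beta, stood at 378 and 491 CPM in ANGPT2 AAV members, against 232 and 210 CPM in control AAV members (log2 fold change 1.00 ± 0.24). A2m, a secreted protease inhibitor that binds cytokines and amyloid-beta, stood at 199 and 670 CPM, against 154 and 148 CPM in control AAV members (1.67 ± 0.40); the ANGPT2 AAV female was well above the other 3, 1 nucleus gave 13.1% of its A2m UMIs, and without that library the log2 change was 0.37. Ctsc, the lysosomal protease cathepsin C, stood at 89.5 and 104 CPM, against 33.2 and 24.7 CPM in control AAV members (1.71 ± 0.42). P3h2, a collagen prolyl hydroxylase, stood at 169 and 192 CPM, against 66.4 and 80.4 CPM in control AAV members (1.36 ± 0.31). Atp2c1, a Golgi calcium pump, stood at 606 and 676 CPM, against 338 and 346 CPM in control AAV members (0.92 ± 0.22), and Cachd1 at 855 and 1242 CPM, against 622 and 489 CPM in control AAV members (0.93 ± 0.24). Sult1c2, a sulphotransferase, was at 69.6 and 93.5 CPM in ANGPT2 AAV members, against 24.1 and 12.4 CPM in control AAV members (2.08 ± 0.49), which rests on 8 and 2 UMIs in the control AAV libraries. Ctsc and Sult1c2 passed the low-count filter through the ANGPT2 AAV libraries alone, so their direction was set by the filter.

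The 10 lower genes with the smallest unadjusted p were genes that members hold little of. All 10 were lower in members than in the other nuclei of the same libraries, by log2 ratios of -2.05 to -3.94. Ntm (neurotrimin, a neuronal adhesion protein) stood at 99.4 and 112 CPM in ANGPT2 AAV members, against 290 and 303 CPM in control AAV members, with a log2 fold change of -1.44 ± 0.26 (SE; edgeR adjusted p = 0.341). A single nucleus gave 47.9% of the Ntm UMIs of the control AAV male and another 61.2% of those of the control AAV female. Its log2 change was -1.10 with called doublets left out. Gria1, an AMPA receptor subunit, stood at 99.4 and 61.4 CPM, against 247 and 186 CPM in control AAV members (-1.62). A single nucleus gave 52.4% of the Gria1 UMIs of the control AAV male and another 23.3% of those of the control AAV female. The Gria1 change was -0.82 with called doublets left out. Kcnj6, a G protein-gated potassium channel, had the largest fitted change of the 10, -2.64, at 9.94 and 13.4 CPM, against 93.5 and 61.8 CPM in control AAV members. It had 1 and 5 UMIs in the ANGPT2 AAV male and female, and a single nucleus gave 45.2% of its UMIs in the control AAV male. Kcnj6, Plxna4 and Galnt17 passed the low-count filter through the control AAV libraries alone, so their direction was set by the filter. Pde10a, Csmd1, Fam155a, Plxna4, Galnt17 and Frmd4a had log2 changes of -1.25 to -2.01. The highest nucleus of the control AAV male gave 57.2% of its library's Csmd1 UMIs. For Fam155a the highest nucleus gave 51.8%, for Plxna4 65.6%, for Galnt17 52.4% and for Frmd4a 34.7%, but for Pde10a 14.5%. With called doublets left out the change was -0.51 for Csmd1 and -1.31 for Pde10a.

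**Figure D3:**
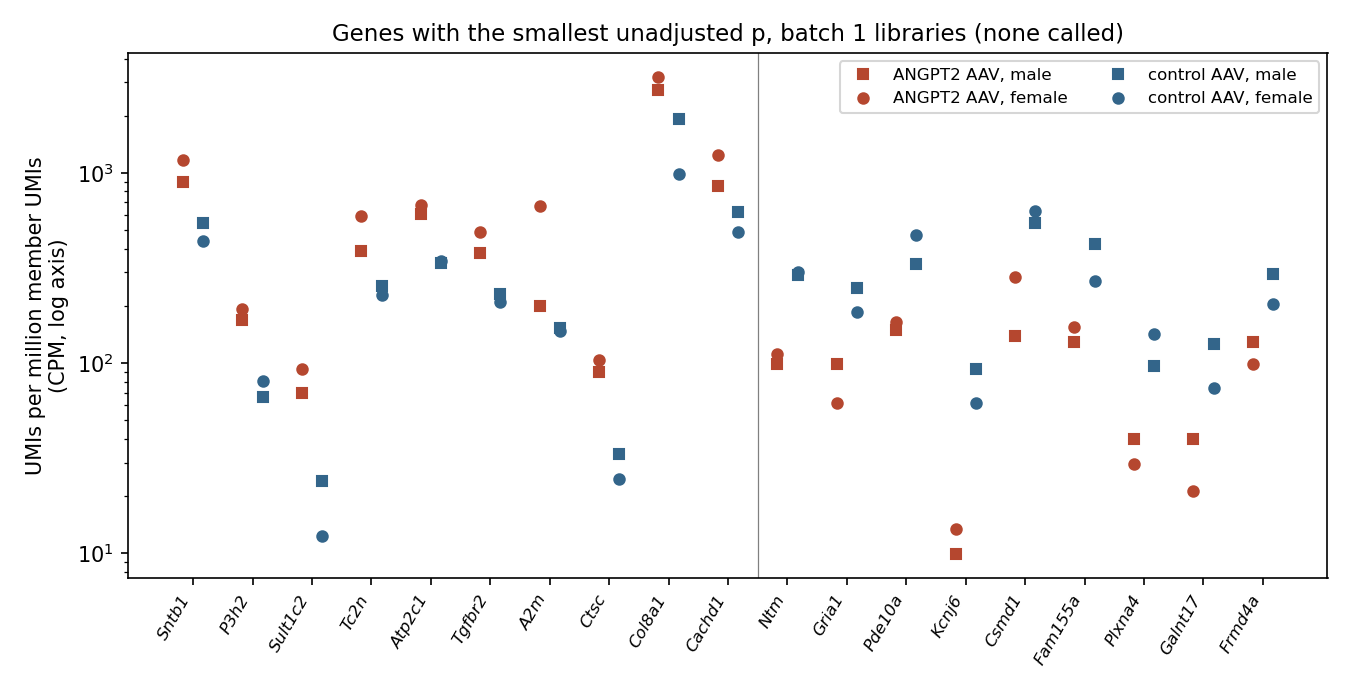
CPM in members (y axis, log) of genes with the smallest unadjusted p among those higher (10, left of the line) and lower (9 of the 10, right of it) in ANGPT2 AAV members. Each point is a batch 1 library, ANGPT2 AAV left of control AAV within each gene, squares male and circles female; none of them was called (lowest adjusted p 0.341).

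Batch 2 gave values of the same genes in 2 libraries that this ranking did not use, an ANGPT2 AAV female (9 members, 21988 UMIs) and a control AAV male (8 members, 16273 UMIs), which differ in sex as well. With 1 library a group there is no test. Of the 10 higher genes 7 were also higher in the ANGPT2 AAV library of batch 2, and of the 10 lower genes 2 were also lower. These 2 were Ntm, with 1 UMI in each library, and Galnt17, with 0 in the ANGPT2 AAV library against 1. Plxna4 had 0 UMIs in both libraries of batch 2 and so no direction. Only 8 of the 20 had 10 or more UMIs there. Col8a1 had 75 UMIs in the ANGPT2 AAV library (3411 CPM, exact Poisson 95% interval 2683 to 4276), against 11 in the control AAV library (676 CPM, 337 to 1209); these intervals cover counting error only. A2m had 11 UMIs (500 CPM, 250 to 895), against 2 in the control AAV library (123 CPM, 14.9 to 444). In the ANGPT2 AAV library 4 of 9 members had an A2m UMI, and 1 nucleus gave 54.5% of them. Sntb1 had 25 UMIs in the ANGPT2 AAV library (1137 CPM), against 17 in the control AAV library (1045 CPM). Others went against batch 1: Cachd1 stood at 1001 CPM in the ANGPT2 AAV library, against 1168 CPM in the control AAV library, Atp2c1 at 637 CPM, against 676 CPM, and Csmd1 at 455 CPM, against 246 CPM. Across the 712 tested genes with at least 10 UMIs in batch 2, 58.3% were higher in the ANGPT2 AAV library and 52.5% had the direction of batch 1.

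The lower genes were part of a wider pattern among genes that members hold little of. Of the 313 tested genes at least 4-fold lower in members than in the other nuclei, 59 had a positive and 254 a negative log2 change between ANGPT2 AAV and control AAV, with a median of -0.42. Both ANGPT2 AAV values were below both control AAV values for 45.0% of them, against 18.1% of all tested genes, and above for 3.83%, against 16.9%. Some of these genes lie near the floor of the low-count filter, and Kcnj6, Plxna4 and Galnt17 passed it through the control AAV libraries alone. The filter's part in these percentages was not tested. The 813 genes at least 4-fold higher in members had a median of -0.01, with 15.7% above and 17.5% below. The groups of genes were set after the values were seen. Together the 313 genes took 27657 and 33084 CPM of the ANGPT2 AAV members, against 44557 and 44071 CPM of the control AAV members. In batch 2 the order was the other way, with 24695 CPM in the ANGPT2 AAV library, against 20463 CPM in the control AAV library.

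Much of this difference lay in few nuclei. The median member gave 2.70% and 2.58% of its UMIs to the 313 genes in the ANGPT2 AAV male and female of batch 1, against 2.66% and 3.10% in the control AAV male and female. Members above 10% numbered 0 and 4 with ANGPT2 AAV, against 3 and 1 with control AAV, and the highest reached 7.08% and 16.2%, against 23.0% and 22.4%. Both of these control AAV nuclei were called doublets. With the 8 called doublets left out, the genes took 2.77% and 2.93% of UMIs with ANGPT2 AAV, against 3.14% and 3.40% with control AAV, and their median log2 change was -0.15. It was -0.07 when members with 3 or more markers of a class other than neurons were left out, an alternative added after the data were seen that left 83 members. The part of RNA from other cells in the single lower genes was not tested.

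**Figure D4:**
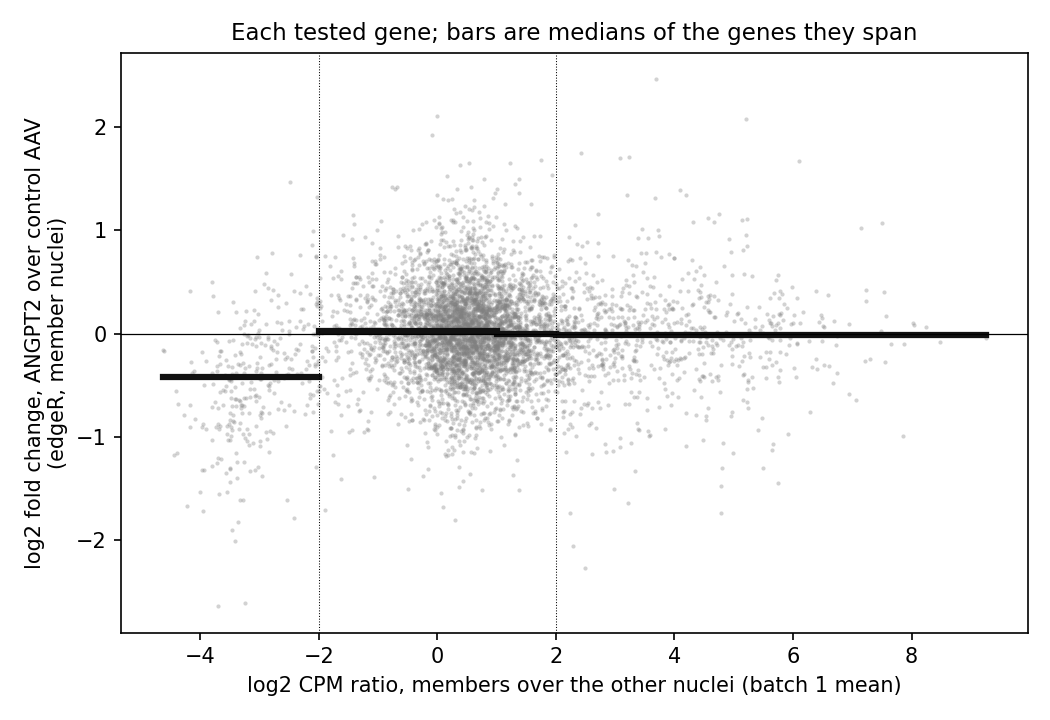
Each point is 1 of 5483 tested genes: log2 CPM ratio of members over the other nuclei (x axis) against the edgeR log2 fold change of ANGPT2 AAV over control AAV in members (y axis). Black bars are medians of the genes they span, -0.42 for the 313 genes left of -2 and -0.01 for the 813 right of 2.

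**Figure D5:**
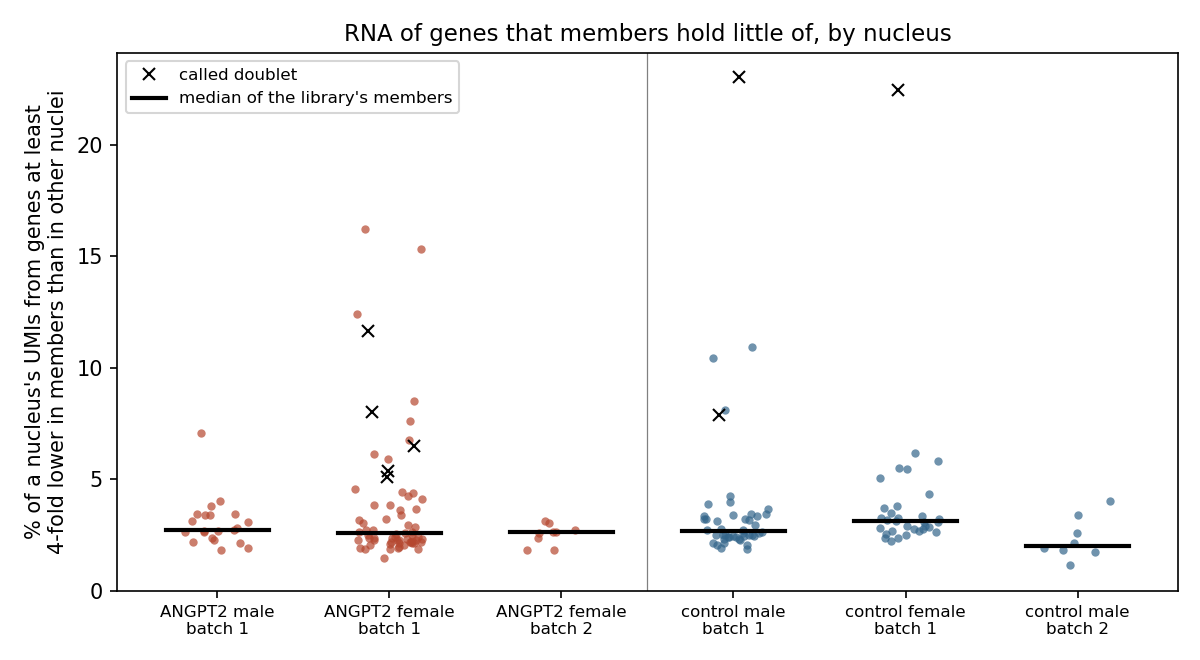
Percentage of each member's UMIs from the 313 genes at least 4-fold lower in members (y axis), by library, ANGPT2 AAV left of the vertical line and control AAV right of it. Points are nuclei, crosses called doublets and bars medians, which lie between 2.02% and 3.10%; the highest nucleus of each batch 1 control AAV library is a called doublet at 23.0% and 22.4%.

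Among secreted and carrier proteins no gene was called. Of 20 listed genes 13 were tested, 5 with a positive and 8 with a negative log2 change (median -0.08, against -0.00 for all genes). Both ANGPT2 AAV values lay above for 1 and below for 3 of them. Ttr had a log2 change of 0.01 ± 0.16 (SE; edgeR adjusted p = 1.00), a sign that turned under 8 alternatives. Enpp2, autotaxin, which makes lysophosphatidic acid, stood at 10180 and 8758 CPM in ANGPT2 AAV members, against 11172 and 10204 CPM in control AAV members. Bmp6, a bone morphogenetic protein, had the smallest unadjusted p of the list, at 626 and 686 CPM, against 287 and 427 CPM in control AAV members (0.92 ± 0.25, adjusted p = 0.389).

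Ion and water transport genes, 14 of 23 tested, had 4 positive and 10 negative changes (median -0.13), with 2 above and 2 below without overlap. Trpm3, a cation channel, stood at 32399 and 27584 CPM in ANGPT2 AAV members, against 25054 and 33458 CPM in control AAV members, and Slc4a10, a bicarbonate transporter that drives fluid secretion, at 3549 and 3279 CPM, against 3533 and 3346 CPM in control AAV members. Car12, a carbonic anhydrase, stood at 676 and 433 CPM, against 335 and 390 CPM in control AAV members (log2 fold change 0.56 ± 0.26, adjusted p = 0.899). Slc12a2, the sodium-potassium-chloride cotransporter NKCC1, stood at 865 and 750 CPM, against 845 and 977 CPM in control AAV members. Aqp1, the water channel of this epithelium, had 0 to 12.4 CPM and was not tested.

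Nutrient, vitamin and hormone carriers were also close to even, with 9 positive and 12 negative changes among 21 of 28 tested (median -0.04; 3 above and 4 below). Slc23a2, the vitamin C transporter SVCT2, stood at 805 and 542 CPM in ANGPT2 AAV members, against 697 and 835 CPM in control AAV members. Abcc4, an efflux pump of organic anions, had the smallest p of the list, at 119 and 168 CPM, against 93.5 and 92.8 CPM in control AAV members (log2 fold change 0.71 ± 0.31, adjusted p = 0.899).

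Receptors and signalling genes of the epithelium, 23 of 26 tested, split into 12 positive and 11 negative changes (median 0.05), with 5 above and 5 below. Htr2c, the serotonin receptor for which this tissue is known, stood at 14425 and 11156 CPM in ANGPT2 AAV members, against 14564 and 12276 CPM in control AAV members. Prlr, the prolactin receptor, stood at 2177 and 2195 CPM, against 1693 and 1676 CPM in control AAV members, and Sulf1, a heparan sulphatase, at 2466 and 1415 CPM, against 1659 and 1330 CPM in control AAV members. Col8a1, described above, had the smallest p of this list.

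Transcription factors of the plexus, 8 of 16 tested, had 2 positive and 6 negative changes (median -0.22; 1 above and 3 below). Msx1, a homeobox gene and known target of BMP signalling, stood at 29.8 and 64.1 CPM in ANGPT2 AAV members, against 178 and 111 CPM in control AAV members (log2 fold change -1.45 ± 0.39, adjusted p = 0.389). Gmnc stood at 825 and 900 CPM, against 929 and 897 CPM in control AAV members, and Rfx3, a cilia factor, at 1273 and 1178 CPM, against 1168 and 1157 CPM in control AAV members. In the WNT, BMP and FGF list, 15 of 26 were tested, 8 positive and 7 negative (median 0.07; 3 above and 4 below). Id3, another target of BMP signalling, stood at 99.4 and 82.8 CPM, against 169 and 346 CPM in control AAV members (-1.48 ± 0.38, adjusted p = 0.383). Msx1, Id3 and Bmp6 are set side by side here for their unadjusted p; Msx1 and Id3 were lower and Bmp6 higher in both ANGPT2 AAV libraries, and none of these differences passed the test.

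The barrier genes gave 4 positive and 5 negative changes among 9 of 23 tested (median -0.11; 1 above and 2 below). Ocln, the tight junction protein occludin, stood at 139 and 144 CPM in ANGPT2 AAV members, against 42.2 and 74.2 CPM in control AAV members (log2 fold change 1.39 ± 0.37, adjusted p = 0.389). Cldn2, a cation-selective claudin of this epithelium, was at 119 and 90.8 CPM, against 127 and 118 CPM in control AAV members, and Cgnl1 (paracingulin) at 318 and 222 CPM, against 232 and 334 CPM in control AAV members. Cilia genes, 15 of 20 tested, had 6 positive and 9 negative changes (median -0.04) with 0 above and 0 below. Ccdc39, an axoneme assembly protein, had the smallest p of that list, at 338 and 195 CPM, against 275 and 346 CPM in control AAV members (-0.32 ± 0.29).

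The angiopoietin receptors were not detected in the epithelium. Tek and Tie1 had 0 UMIs in all members. Angpt2 had 1 UMI in the ANGPT2 AAV female of batch 1 and 0 in every other library that held members. Whether RNA made from the vector would be counted as Angpt2 was not tested, so these counts do not show whether the vector was expressed here. Of the 19 genes of angiopoietin and VEGF signalling 6 were tested, 3 positive and 3 negative (median -0.03; 1 above and 1 below). Vegfa, a growth factor by which this epithelium maintains the fenestrated vessels beneath it, stood at 79.5 and 90.8 CPM in ANGPT2 AAV members, against 151 and 136 CPM in control AAV members (log2 fold change -0.72 ± 0.31, adjusted p = 0.899). In batch 2 it had 4 UMIs in the ANGPT2 AAV library and 0 in the control AAV library, the other direction.

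Inflammatory genes were mostly too low for a comparison by gene. Of 23 interferon response genes 1 was tested, Ifi27, at 229 and 166 CPM in ANGPT2 AAV members, against 256 and 173 CPM in control AAV members (log2 fold change -0.25 ± 0.28, adjusted p = 0.975), and the list summed to 398 and 371 CPM, against 498 and 495 CPM in control AAV members. Of 10 genes of MHC class I presentation 0 were tested, and they summed to 79.5 and 96.1 CPM, against 127 and 142 CPM in control AAV members. Among 23 genes of cytokines, adhesion and NF-kB 5 were tested (2 positive, 3 negative, median -0.07; 1 above and 1 below), Ccl2, Cxcl1, Cxcl10, Il6, Tnf, Il1b and Lcn2 were at 0 in all 4 libraries, and Nfkb1 was at 159 and 123 CPM, against 160 and 179 CPM in control AAV members (-0.32 ± 0.29). Vcam1, an adhesion receptor for leukocytes on this epithelium, stood at 219 and 144 CPM, against 87.5 and 303 CPM in control AAV members, so the groups overlapped. Of 13 complement genes 3 were tested, all with negative changes (median -0.94; 2 below). The one with the smallest p was Cr1l, the complement regulator CRRY, at 39.8 and 32.0 CPM, against 78.4 and 74.2 CPM in control AAV members (-1.16 ± 0.43, adjusted p = 0.738). Cr1l passed the low-count filter through the control AAV libraries alone, so its direction was set by the filter and the list's signs are a description.

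Amyloid handling genes, 14 of 22 tested, had 11 positive and 3 negative changes (median 0.24, against -0.00 for all genes), with 3 above and 1 below without overlap. App, the amyloid precursor protein, stood at 835 and 700 CPM in ANGPT2 AAV members, against 772 and 662 CPM in control AAV members; whether reads of the human transgene count here was not tested. Apoe had the smallest p of this list, at 129 and 259 CPM, against 99.6 and 198 CPM in control AAV members (log2 fold change 0.63 ± 0.37, adjusted p = 0.916), and the groups overlapped. Abca1, a lipid exporter that loads apolipoprotein E, stood at 209 and 166 CPM, against 184 and 241 CPM in control AAV members.

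Mitochondrial transcripts were the list with the largest median change of the 20 lists, and their changes in the other nuclei were positive as well, at 0.77 to 1.07. All 11 tested of 13 had positive log2 changes (median 1.00) and 4 were above without overlap, while none was called. mt-Nd5, a complex I subunit, stood at 179 and 294 CPM in ANGPT2 AAV members, against 106 and 130 CPM in control AAV members (1.14 ± 0.30, adjusted p = 0.389). Its change in the other nuclei of the same libraries was 0.82 ± 0.46, and the difference in effect between members and other nuclei had an adjusted p of 1.00. In nuclei these transcripts come from outside the nucleus, and the list summed to 2137 and 3995 CPM in ANGPT2 AAV members, against 1282 and 2307 CPM in control AAV members; its part in other gene results was not tested.

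Stress, clock and activity lists showed no called gene. For the unfolded protein response 10 of 19 genes were tested, 2 positive and 8 negative (median -0.36; 2 above and 1 below). Xbp1, its transcription factor, stood at 9.94 and 32.0 CPM in ANGPT2 AAV members, against 69.4 and 43.3 CPM in control AAV members (log2 fold change -1.14 ± 0.56, adjusted p = 0.916). Xbp1 passed the low-count filter through the control AAV libraries alone, so its direction was set by the filter. Heat shock and oxidative stress genes gave 9 positive and 4 negative changes among 13 of 21 tested (median 0.05; 1 above and 1 below), and Hsp90aa1 stood at 129 and 150 CPM, against 63.4 and 92.8 CPM in control AAV members (0.93 ± 0.34, adjusted p = 0.711). Clock genes gave 8 positive and 5 negative changes among 13 of 19 tested (median 0.07; 2 above and 3 below), with Ciart at 39.8 and 42.7 CPM, against 72.4 and 68.0 CPM in control AAV members (-0.74 ± 0.42).

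Immediate early genes separated 1 control AAV library from the rest. Egr1 stood at 39.8 and 45.4 CPM in ANGPT2 AAV members, against 36.2 and 136 CPM in control AAV members (log2 fold change -0.76 ± 0.59, adjusted p = 0.939), and was positive, 0.30, without the control AAV female. Dusp1, a phosphatase of the same response, stood at 19.9 and 10.7 CPM, against 9.05 and 272 CPM in control AAV members, and the list of 19 summed to 139 and 203 CPM, against 193 and 841 CPM in control AAV members. The control AAV female was also the highest of the 4 in its other nuclei for Fos, at 6.73 and 9.74 CPM with ANGPT2 AAV, against 5.55 and 54.2 CPM with control AAV. Of this list 2 genes were tested, both negative (median -0.51), with 0 above and 0 below.

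The effect of ANGPT2 AAV in members was also set against its effect in the other nuclei of the same libraries. Of 5483 genes 0 (0.0%) were called for a difference in effect (edgeR, lowest adjusted p 0.345, 245 genes at an unadjusted p under 0.05). P3h2 had the smallest p, with a log2 change of 1.36 ± 0.31 in members, against -0.47 ± 0.14 in the other nuclei. Tgfbr2 (1.00 ± 0.24, against -0.65 ± 0.34) and Ctsc (1.71 ± 0.42, against -0.75 ± 0.26) likewise had opposite signs in members and the other nuclei, each with an adjusted p of 0.947 for the difference. The sign of Ctsc in members was set by the low-count filter, as given above. Without 1 library the count ran from 2 (ANGPT2 AAV female left out) through 17 (control AAV female) and 19 (ANGPT2 AAV male) to 30 (control AAV male), and none of these differences passed the test over all 4 libraries.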

How the data were processed

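Single-nucleus RNA was measured with Chromium droplets in 7 libraries. Per the submitters' processing notes, Cell Ranger 6.1.2 and the mm10 (GRCm38) reference were used. The deposited matrices give the authors' whole-number counts of UMIs, not normalized, and the other columns used are gene and barcode names. Of 58286 barcodes, 1 was left out for under 300 genes and 116 for 5% or more mitochondrial UMIs. Doublets were called per library from simulated doublets (2 per nucleus, 50 neighbours, 2000 variable genes, 30 components), kept in the main results and left out as an alternative. Member counts were summed per library and tested with edgeR 4.0.16 (R 4.3.3; TMM factors, filterByExpr with a minimum count of 10 and a total of 15, quasi-likelihood test, Benjamini-Hochberg over all genes tested) where a library had at least 10 members; DESeq2 1.42.0 was an alternative. Shares used exact permutation tests over all assignments of the libraries to groups. Exact 95% intervals came from scipy 1.17.1, and the limit for a count of 0 is 3 counts. For the difference in effect, member and other sums of the same libraries entered 1 fit with library as a term. Scripts were tested on simulated counts. The depth of the members, 100588 to 374496 UMIs per batch 1 library, limits the precision.

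The members, the 20 lists and the 9 marker lists were chosen with earlier results of these data known. Named genes were the 6 selecting genes; the 20 genes with the highest members-to-other ratio and at least 50 CPM in each library with 10 members; every called gene or else the 10 with the smallest unadjusted p in each direction; in each list the 3 tested genes with the highest mean CPM, of which some are left out, and the 1 with the smallest p; Ttr, Angpt2 and Tek; others were chosen after their values were seen. The labels' replicate number marks the batch. In the comparison of 4 libraries all share 1 batch, so no block could be fitted; fits with the block used the 6 libraries with members. A few genes that these rules name are not reported here.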

Additional observations from a re-analysis of the deposited data

Results flagged for a closer look

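In the other nuclei, Ttr stood at 567 CPM in the ANGPT2 AAV female of batch 1, farther from the 3 other ANGPT2 AAV libraries than Dixon's test allows at 95%. So did Kl at 6.55 CPM, Kcnj13 at 2.96 CPM and Folr1 at 1.60 CPM, but these genes selected the members and the other nuclei are those that missed the rule, so their levels are a description. Otx2, Slc4a5 and Clic6 did not stand apart in this way, and Clic6 was higher in the ANGPT2 AAV male of batch 2, at 7.27 CPM, than in this library, at 5.28 CPM. The 9 groups looked at all hold the same 4 ANGPT2 AAV libraries, from both batches, so they are not independent. Chance flags about 1 in 20 independent groups, so this rate cannot be set against the count of 4 among 9. All 4 flags fell on the ANGPT2 AAV female of batch 1. This library also held the most members, 66, and 24 of the 46 nuclei that met 10 per 10000 with 2 of the selecting genes.

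The difference in the share of members had opposite signs in the sexes of batch 1, with -0.232 percentage points among males and 0.271 among females. Each rests on 1 library per group, and the difference between the sexes was not tested.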

How the results depend on the processing

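The difference in the share of members had a permutation p above 0.05 in every setting run. With 1 library left out the smallest possible p was 0.05 (ANGPT2 AAV library) or 0.0667 (control AAV library). Those settings and the permutation within batches could thus not have passed, and they show only the size of the difference. It was -3.67e-05 percentage points with the replicate block (permutation within batches, exact p = 1.00, smallest possible 0.0556), -0.0363 after thinning nuclei to 1500 UMIs, and -0.208 to 0.0212 when 1 library was left out. It was positive without ANGPT2 AAV replicate 3 (0.0212) and without control AAV replicate 1 (0.0177).

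The count of called genes, 0 with all 4 libraries, was also 0 with RLE factors, sex as a term, called doublets left out, the stricter rule, Ttr left out, DESeq2, and the 6 libraries with or without the replicate block. It was 30 (11 higher, 19 lower) with no filter on low counts, 10 (3 higher, 7 lower) over the 6 libraries with the replicate block and sex as terms, a fit added after the data were seen, and 0 to 66 with 1 library left out. For the difference in effect it was 10 with no filter and 2 to 30 with 1 library left out. Fits with 1 library left out tested 4553 to 7948 genes, since the filter follows the smaller group.

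Among 38 named genes under 15 settings (524 values), 449 kept their direction and side of the threshold, 62 passed it and 13 changed sign. Ttr did so at -0.0468 (doublets left out), -0.0375 (stricter rule), -0.0741 (6 libraries), -0.104 (replicate block), -0.0982 (replicate block and sex), -0.186 (members with other markers left out), and ran from -0.0791 to 0.0825 with 1 library left out. With 1 library left out, Ifi27 ran from -0.428 to 0.0900, Egr1 from -1.63 to 0.299, Ccdc39 from -0.633 to 0.129 and Apoe from -0.123 to 1.13; the cause was not tested. The block and the sex term could not be fitted together within the 4 libraries, which are all of batch 1, and leaving out members with 2 markers of another class left no nuclei in some libraries. Depth limits all gene results: 182 nuclei, of which 17 in batch 2.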
